A study of Rattus norvegicus with 24 samples.

Results

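The genes of de novo fatty acid synthesis followed here were Fasn, Acaca, Acly, Me1, Acsl3 and Thrsp, 6 genes given as a list of names, and the platform annotation assigned 11 of the 31042 tested probe sets to them. Fasn, Acaca and Me1 had 2 probe sets each, Thrsp had 3, and Acly and Acsl3 had 1 each, and all 11 are reported. They were measured in primary rat hepatocytes in collagen sandwich culture, a layer of matrix below and another above the cells. Each culture received 1 of 4 designer drugs of the piperazine class for 24 h. BZP was given at 625 µM, TFMPP at 35 µM, MeOPP at 522 µM and MDBP at 467 µM, each the EC20 of the drug, so the concentrations differed. Every drug had 3 treated samples, and every treated sample had its own named control with 0.1 percent DMSO, which gave 12 pairs. The labels give no strain, sex or age of the animals, nor whether the replicates are separate animals or cultures. The p-values therefore reflect only how far these samples differ among themselves, and that may be technical variation. Values are log2 expression from Affymetrix rat arrays, and a change is treated minus paired DMSO on that scale.

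De novo fatty acid synthesis turns citrate that leaves the mitochondrion into palmitate in the cytosol. ATP citrate lyase (Acly) cleaves citrate to acetyl-CoA, acetyl-CoA carboxylase (Acaca) makes malonyl-CoA in the committed step, and fatty acid synthase (Fasn) joins these units with NADPH, part of which comes from malic enzyme (Me1). Acsl3 then activates long-chain fatty acids to acyl-CoA at the endoplasmic reticulum and lipid droplets, and Thrsp (Spot 14) is a small protein of lipogenic tissues that is induced by thyroid hormone and carbohydrate. In liver Fasn, Acaca, Acly, Me1 and Thrsp are known targets of the transcription factors SREBP-1c (Srebf1) and ChREBP (Mlxipl).

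Array medians lay between 4.448 and 4.519. Clustering of the 12 DMSO arrays by their correlation (average linkage) was cut at 5 sets, a number that was chosen and not tested. Arrays of the same set correlated with r of 0.994 to 0.997, and arrays of different sets with r of 0.962 to 0.992. The sets are called preparations here, and the labels do not name them: preparation 1 held pair 1 of every drug, preparation 2 pair 2 of BZP, TFMPP and MeOPP, preparation 3 pair 3 of BZP and MDBP, preparation 4 pair 3 of TFMPP and MeOPP, and preparation 5 pair 2 of MDBP. The 9 measured hepatocyte markers had mean levels from 6.54 (Asgr2) to 14.1 (Alb, close to the highest value on any array). In the mean of the drugs Asgr1 fell by 0.84, Asgr2 by 0.65, Ttr by 0.24 and Hnf4a by 0.23, Ahsg rose by 0.34, and the other 4, Alb among them, did not pass in limma. In these bulk samples, fewer cells of a type and less RNA per cell cannot be told apart.

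The response was uneven along the pathway. Fasn and Acsl3 rose with each of the 4 drugs, Thrsp rose with BZP, MeOPP and MDBP on 2 or 3 of its 3 probe sets, and Acly rose with BZP. Of the 2 Acaca probe sets 1 fell in the mean of the drugs, and neither Me1 probe set passed in any comparison of the paired fit. In limma with Benjamini-Hochberg adjustment over all probe sets, 7 of the 11 probe sets changed with BZP, against 9.24% of all probe sets, 3 with TFMPP against 1.78%, 5 with MeOPP against 6.01% and 6 with MDBP against 6.98%. In the mean of the 4 drugs 6 rose, against 12.5% of all probe sets higher, and 1 fell, against 9.85% lower. The list was chosen with earlier results of these data known, so these counts describe the members and are not independent evidence. Without the pair terms 0 of the 11 passed with any single drug and 3 passed in the mean, which were both Fasn probe sets and Acsl3. Leaving out 1 pair also cost calls: with TFMPP 0 passed without pair 1, 0 without pair 2 and 1 without pair 3, with MDBP 1 without pair 1, 1 without pair 2 and 4 without pair 3, with MeOPP 3, 2 and 3, and with BZP 4, 4 and 6.

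**Figure D1:**
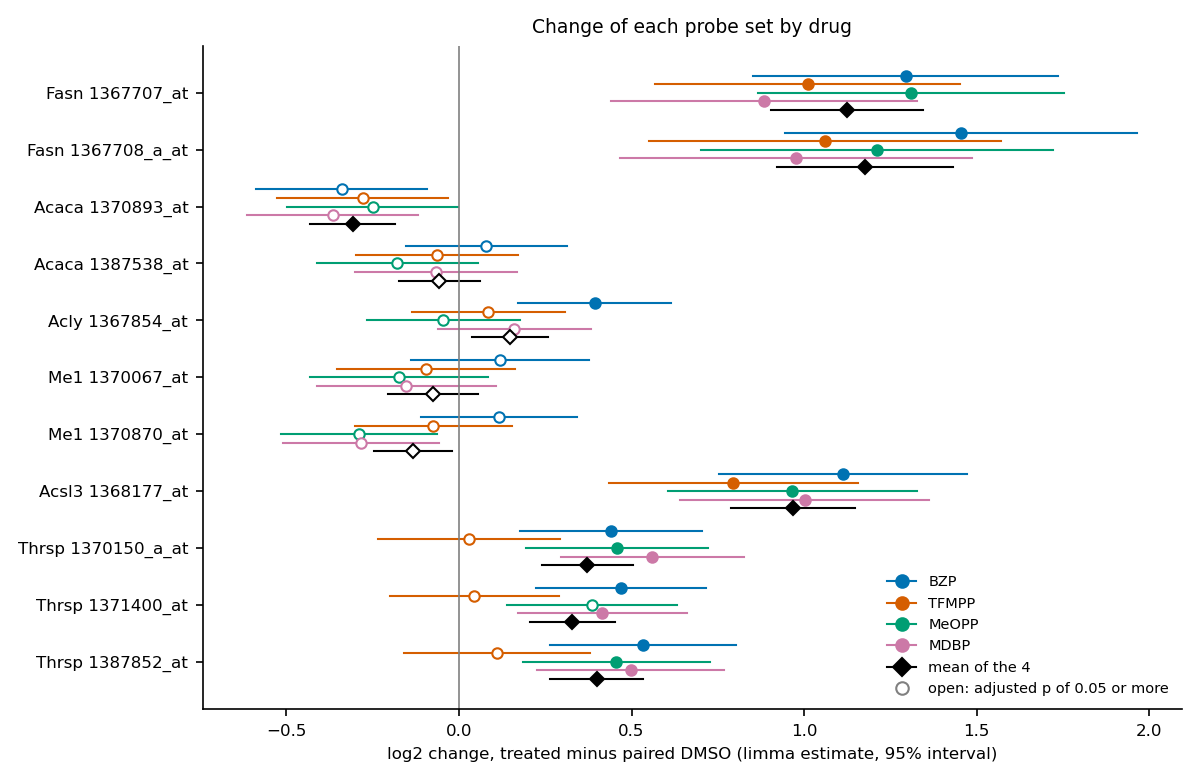
Log2 change (treated minus paired DMSO) of the 11 probe sets with each drug and in the mean of the 4, as limma estimates with 95% intervals (n = 3 pairs per drug, 12 for the mean). Filled symbols passed an adjusted p of 0.05; both Fasn probe sets and Acsl3 are filled throughout, while the 3 Thrsp probe sets lie between 0.03 and 0.11 with TFMPP.

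**Figure D2:**
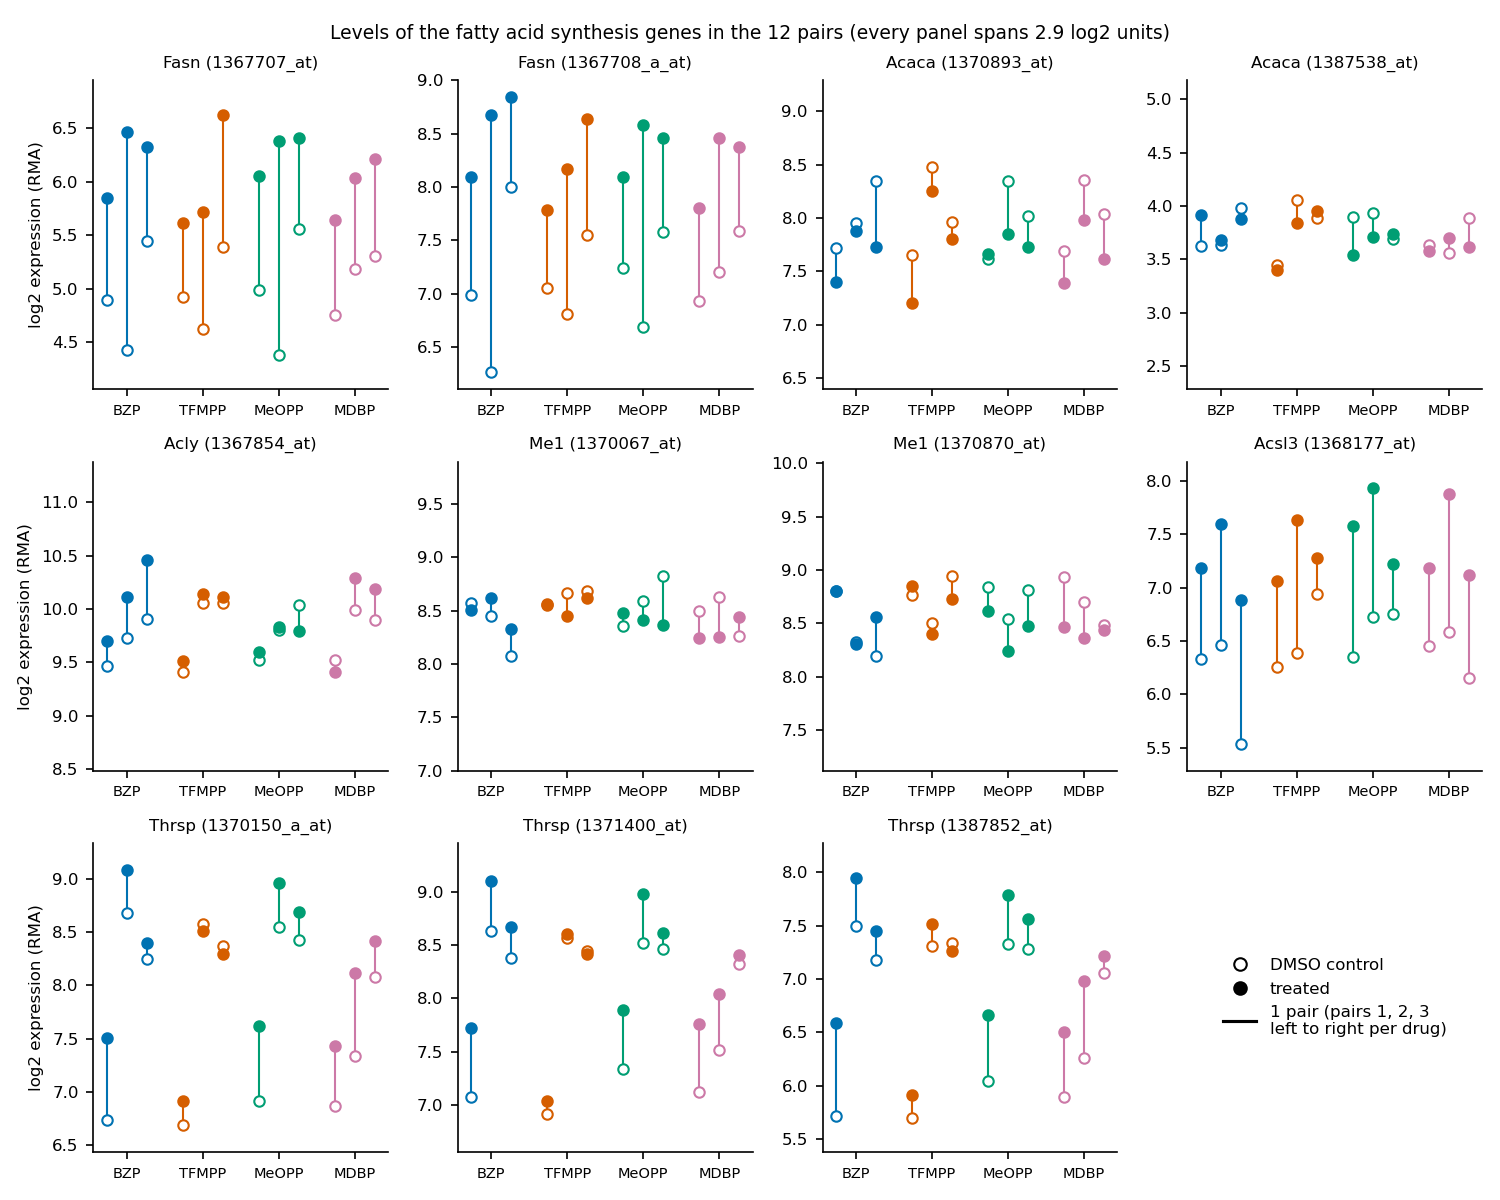
Log2 expression of each probe set in the DMSO array (open) and the treated array (filled) of the 12 pairs, joined by a line, with drugs in colour and pairs 1 to 3 from left to right. The treated array lies above its control in 12 of 12 pairs for both Fasn probe sets and for Acsl3 (4.59% of all probe sets). The Thrsp control of pair 1 is the lowest of its drug with each drug and each probe set.

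Supply of acetyl-CoA: Acly, probe set 1367854_at, rose with BZP by 0.39 ± 0.10 (SE, n = 3 pairs; 1.31-fold; limma adjusted p = 0.0253). With BZP its DMSO arrays read 9.47, 9.73 and 9.91 in pairs 1, 2 and 3, and the treated arrays 9.70, 10.11 and 10.46. Each treated array lay above its own control, but the groups overlapped, and the level differed between pairs. The call with BZP was lost without the pair terms (adjusted p = 0.763), with only the arrays of BZP (0.121) and without pair 2 (0.0857) or pair 3 (0.202) of BZP, and the adjusted p ranged from 0.015 to 0.763 over all alternatives. The changes were 0.08 ± 0.10 with TFMPP, -0.05 ± 0.10 with MeOPP and 0.16 ± 0.10 with MDBP, none of which passed. In the mean of the drugs Acly stood at 0.15 ± 0.05 (adjusted p = 0.0519, 10 of 12 pairs higher), and passed in 6 of 23 alternatives.

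Supply of NADPH: the probe sets of Me1, 1370067_at and 1370870_at, stood at -0.08 ± 0.06 (adjusted p = 0.451) and -0.13 ± 0.05 (adjusted p = 0.0915) in the mean of the drugs (SE, n = 12 pairs). Over the 12 DMSO arrays 1370870_at ran from 8.19 to 8.94 with a median of 8.73, and over the 12 treated arrays from 8.24 to 8.85 with a median of 8.47, so over all drugs the groups overlapped widely. With MDBP alone they did not: the treated arrays, at 8.37 to 8.46, lay below the controls, at 8.49 to 8.94. The share of all probe sets that did so is not given here. The change of 1370870_at was 0.12 ± 0.11 (BZP), -0.07 ± 0.11 (TFMPP), -0.29 ± 0.11 (MeOPP) and -0.28 ± 0.11 (MDBP; SE, n = 3 pairs), with limma adjusted p-values of 0.596, 0.91, 0.142 and 0.136. It lay below its control in 10 of 12 pairs, and in the mean it passed in 3 of 23 alternatives: without pair 3 of BZP, without pair 3 of MDBP and without preparation 3. The adjusted p ranged from 0.0128 (without preparation 3, -0.19) to 0.48. The other probe set gave 0.12, -0.09, -0.17 and -0.15, and lay below its control in 8 of 12 pairs. The 2 probe sets had the same sign in 8 of 12 pairs and differed by at most 0.34.

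The committed step: Acaca, probe set 1370893_at, fell in the mean of the drugs, by 0.31 ± 0.06 in limma (SE, n = 12 pairs; 1.24-fold lower; adjusted p = 0.000961), with 11 of 12 pairs lower. The DMSO arrays ran from 7.62 to 8.48 with a median of 7.99, and the treated arrays from 7.21 to 8.25 with a median of 7.73. The groups overlapped, and the difference showed within pairs: the changes ran from -0.62 in pair 3 of BZP to 0.05 in pair 1 of MeOPP. No single drug passed, with changes of -0.34, -0.28, -0.25 and -0.37 for BZP, TFMPP, MeOPP and MDBP and adjusted p-values from 0.0742 to 0.341. The call in the mean was kept with 1 value per preparation (adjusted p = 0.00633) and was lost without the pair terms (0.211) and with the 12 DMSO arrays joined (0.153), in a range from 0.000474 to 0.211 over 23 alternatives. The second Acaca probe set, 1387538_at, disagreed with the first. It was dim, between 3.41 and 4.06 on all arrays, and stood at -0.06 ± 0.06 in the mean of the drugs (adjusted p = 0.542). The 2 probe sets had the same sign in 6 of 12 pairs, and the change of the first lay below that of the second in 11 of 12, by up to 0.61. The fall of Acaca therefore rests on the brighter probe set.

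The synthase: Fasn rose with every drug on both probe sets and in 12 of 12 pairs, where 4.59% of all probe sets were higher in every pair. Probe set 1367708_a_at read 6.99, 6.26 and 8.00 in the DMSO arrays of BZP in pairs 1, 2 and 3 and 8.10, 8.68 and 8.84 in the treated arrays. With TFMPP it read 7.05, 6.81 and 7.55 in DMSO and 7.79, 8.17 and 8.64 in the treated arrays. The treated arrays lay above all 3 controls with both drugs, which held for 4.98% of all probe sets with BZP and 3.98% with TFMPP. With MeOPP it read 7.24, 6.69 and 7.57 in DMSO and 8.10, 8.58 and 8.46 in the treated arrays. With MDBP it read 6.93, 7.20 and 7.59 in DMSO and 7.81, 8.46 and 8.38 in the treated arrays. Here too the groups of 3 did not overlap, as for 6.65% of all probe sets with MeOPP and 6.31% with MDBP, although over all drugs the lowest treated array, at 7.79, lay under the highest control, at 8.00. The changes were 1.46 ± 0.24 with BZP (2.74-fold), 1.06 ± 0.24 with TFMPP (2.09-fold), 1.21 ± 0.24 with MeOPP (2.31-fold) and 0.98 ± 0.24 with MDBP (1.97-fold; SE, n = 3 pairs), with limma adjusted p-values of 0.00108, 0.0327, 0.00592 and 0.0215.

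The second Fasn probe set, 1367707_at, gave nearly the same changes at a lower level. Its DMSO arrays ran from 4.38 to 5.56 with a median of 4.95 and its treated arrays from 5.61 to 6.63 with a median of 6.14. All 12 treated arrays lay above all 12 controls, as did 0.164% of all probe sets. Here the change was 1.29 ± 0.21 (BZP), 1.01 ± 0.21 (TFMPP), 1.31 ± 0.21 (MeOPP) and 0.88 ± 0.21 (MDBP; SE, n = 3 pairs), with limma adjusted p-values of 0.000871, 0.0191, 0.00113 and 0.0167. The probe sets differed by a median of 0.13 and by at most 0.41 in a pair. In the mean of the drugs they rose by 1.12 ± 0.10 and 1.18 ± 0.12 (n = 12 pairs), and both passed under all 23 alternatives, with 1.08 ± 0.12 and 1.17 ± 0.14 from 1 value per preparation. The calls with TFMPP and MDBP were lost on both probe sets whichever pair of the drug was left out, with adjusted p-values from 0.0636 to 0.267, and that of 1367708_a_at with MeOPP was lost without pair 2 (0.11). Without the pair terms the adjusted p of the single drugs was 0.128 or higher, and with an intensity trend that of 1367708_a_at was 0.0882 with TFMPP and 0.0526 with MDBP. Within a pair, the Fasn change (1367708_a_at) exceeded the Acaca change (1370893_at) in 12 of 12 pairs, by 0.81 to 2.50, and the Acly change in 12 of 12, by 0.29 to 2.03. It exceeded the Acsl3 change in 7 of 12.

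Activation of the product: Acsl3, probe set 1368177_at, rose with every drug and in 12 of 12 pairs, where 4.59% of all probe sets were higher in every pair. Its DMSO arrays read 6.34, 6.46 and 5.53 with BZP and its treated arrays 7.18, 7.60 and 6.88, in pairs 1, 2 and 3. With TFMPP it read 6.26, 6.39 and 6.94 in DMSO and 7.06, 7.64 and 7.27 in the treated arrays. The control of pair 3 of BZP was the lowest of all arrays and that of pair 3 of TFMPP the highest control, but within each drug the groups did not overlap. With MeOPP it read 6.35, 6.73 and 6.75 in DMSO and 7.57, 7.93 and 7.22 in the treated arrays. With MDBP it read 6.45, 6.58 and 6.15 in DMSO and 7.19, 7.88 and 7.12 in the treated arrays. Again all treated arrays lay above the 3 controls of their drug. The same held for 3.98% of all probe sets with TFMPP and 4.98% with BZP. The share was 6.31% for MDBP and 6.65% for MeOPP. The changes were 1.11 ± 0.17 with BZP (2.16-fold), 0.79 ± 0.17 with TFMPP (1.74-fold), 0.97 ± 0.17 with MeOPP (1.95-fold) and 1.00 ± 0.17 with MDBP (SE, n = 3 pairs), with limma adjusted p-values of 0.000544, 0.0235, 0.00238 and 0.00173. The mean of the drugs, 0.97 ± 0.08, passed under all 23 alternatives. The call with TFMPP was kept without pair 3 and lost without pair 1 or pair 2, with adjusted p-values from 0.0268 to 0.283 and changes from 0.57 to 1.03. Without the pair terms the single drugs had adjusted p-values of 0.128 or higher. With the 12 DMSO arrays joined, the calls with BZP (0.81, limma adjusted p = 0.075) and TFMPP (0.91, 0.108) were lost. Those with MeOPP (adjusted p = 0.00486) and MDBP (0.03) were kept in that fit.

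Thrsp rose with BZP and MDBP on all 3 probe sets and with MeOPP on 2 of 3, and stood near 0 with TFMPP. Probe set 1371400_at read 7.08, 8.63 and 8.38 in the DMSO arrays of BZP in pairs 1, 2 and 3 and 7.73, 9.10 and 8.67 in the treated arrays. With MeOPP it read 7.34, 8.52 and 8.46 in DMSO and 7.89, 8.97 and 8.61 in the treated arrays. With MDBP it read 7.12, 7.51 and 8.32 in DMSO and 7.76, 8.04 and 8.40 in the treated arrays. Every treated array lay above its own control, but the groups overlapped with each drug because the level depended on the pair. With TFMPP it read 6.91, 8.57 and 8.44 in DMSO and 7.03, 8.60 and 8.42 in the treated arrays, which nearly coincide. The changes were 0.47 ± 0.12 with BZP (1.38-fold; limma adjusted p = 0.0166), 0.39 ± 0.12 with MeOPP (adjusted p = 0.0627), 0.42 ± 0.12 with MDBP (adjusted p = 0.0398) and 0.04 ± 0.12 with TFMPP (adjusted p = 0.956; SE, n = 3 pairs). The other probe sets, 1370150_a_at and 1387852_at, gave 0.44 and 0.53 with BZP, 0.46 and 0.46 with MeOPP, 0.56 and 0.50 with MDBP, which all passed, and 0.03 and 0.11 with TFMPP, which did not. In the mean of the drugs the 3 probe sets rose by 0.33 to 0.40 (adjusted p-values from 0.000217 to 0.000513; 10, 11 and 11 of 12 pairs higher), and with 1 value per preparation they passed at 0.0161 to 0.0247. Without the pair terms the adjusted p was 0.516 to 0.61 in the mean and 0.883 or higher for the single drugs that had passed. The calls with MeOPP were lost whichever of its pairs was left out, and on both probe sets also without pair 2 or pair 3 of TFMPP (1387852_at also without its pair 1 or pair 1 of MDBP). With the 12 DMSO arrays joined, the Thrsp changes with MDBP were 0.20, 0.13 and 0.18 (1370150_a_at, 1371400_at and 1387852_at), and none passed (adjusted p-values from 0.916 to 0.945). The calls with BZP (changes of 0.54 to 0.61) and MeOPP (0.63 and 0.62) were lost there too, with limma adjusted p-values of 0.554 to 0.782. With only the arrays of the drug, all 3 calls with BZP were lost (0.0783 to 0.147). So were those of 1370150_a_at with MeOPP (0.0619) and of 1371400_at and 1387852_at with MDBP (0.108 and 0.061). After repeated quantile normalization 1387852_at lost its call with MeOPP (0.0631) and 1371400_at with MDBP (0.0514). The calls with MDBP were also lost without its pair 1 or pair 2 and kept without pair 3, and those with BZP were lost without its pair 1 and, on 2 of 3 probe sets, without pair 2. On 1370150_a_at the change with BZP was 0.28 without pair 1. Without any 1 of the TFMPP pairs 1371400_at lost its call with MDBP (adjusted p-values from 0.0199 to 0.949 over all alternatives).

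In RefSeq's table of promoters (build GRCr8) 4 of the 6 genes had an entry, and Fasn and Acaca had none. The 250 bases before the start are shown for Acsl3, which rose with every drug, for Thrsp, which rose with 3 of the 4 drugs, and for Acly, which rose with BZP. Capitals mark CCAAT, the box bound by NF-Y, and GGGCGG, the box bound by Sp1, on either strand, 5′ to 3′ along the gene.
Acsl3, chr9:87563351-87563600, plus strand: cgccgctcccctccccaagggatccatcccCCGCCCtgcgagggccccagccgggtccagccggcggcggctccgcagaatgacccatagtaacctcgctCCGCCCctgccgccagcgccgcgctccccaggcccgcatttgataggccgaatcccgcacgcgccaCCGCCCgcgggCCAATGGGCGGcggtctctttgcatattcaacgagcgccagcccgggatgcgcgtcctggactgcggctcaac
Thrsp, chr1:161138965-161139214, minus strand: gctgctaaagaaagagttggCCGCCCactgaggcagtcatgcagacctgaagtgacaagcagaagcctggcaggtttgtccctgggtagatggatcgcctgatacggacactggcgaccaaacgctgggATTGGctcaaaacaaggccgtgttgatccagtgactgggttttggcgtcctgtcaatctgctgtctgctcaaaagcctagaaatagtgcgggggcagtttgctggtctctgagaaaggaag
Acly, chr10:85963632-85963881, minus strand: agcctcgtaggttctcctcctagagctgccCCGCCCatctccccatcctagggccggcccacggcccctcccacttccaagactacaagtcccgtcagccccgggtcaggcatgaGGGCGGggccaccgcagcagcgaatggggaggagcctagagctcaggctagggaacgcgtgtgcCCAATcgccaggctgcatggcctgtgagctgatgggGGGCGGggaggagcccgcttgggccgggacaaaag
In Acsl3 a CCAAT box, 73 to 69 bases before the start, is followed without a gap or overlap by a GGGCGG box at 68 to 63, and 3 more Sp1 boxes lie upstream on the other strand. Thrsp holds 1 CCAAT box on the other strand, 121 to 117 bases before the start, and 1 Sp1 box. Acly holds 1 CCAAT box at 71 to 67 and 3 Sp1 boxes. Me1 held 5 Sp1 boxes and 0 CCAAT boxes. Of 33469 windows of the same length, 34% hold CCAAT and 30.5% hold GGGCGG. The SREBP element TCACNCCAC, found in 0.974% of all windows, and the E-box CACGTG, found in 5.59%, were searched on both strands and matched in 0 of the 4 windows. These matches describe the letters only.

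Whether the drugs differed was tested directly, drug against drug, at concentrations that differed. BZP and MDBP are benzylpiperazines, and TFMPP and MeOPP are phenylpiperazines. The means of the classes were not compared. Among 6 differences between drugs and 11 probe sets limma called 0, and an F test over the 4 drugs also called 0 of 11, as it did for 0% of all probe sets. BZP and TFMPP differed in 0.0515% of all probe sets and the other 5 pairs of drugs in 0%. At an unadjusted p under 0.05 the F test gave 2 of 11 member probe sets (Thrsp 1370150_a_at and Me1 1370870_at) and 1869, or 6.02%, of all probe sets. For Fasn (1367708_a_at) the differences ran from -0.15 between TFMPP and MeOPP (95% interval -0.87 to 0.57) to 0.48 between BZP and MDBP (-0.24 to 1.20). For Acsl3 the extremes were -0.21 between TFMPP and MDBP (-0.72 to 0.30) and 0.32 between BZP and TFMPP (-0.19 to 0.83). These intervals leave room for differences as large as many of the changes themselves, so they do not show that the drugs act alike. The widest of the Thrsp differences was TFMPP minus MDBP on 1370150_a_at, -0.53 ± 0.18 (95% interval -0.90 to -0.16; unadjusted p = 0.00826 and adjusted p = 0.619 in limma). BZP minus MeOPP was 0.44 ± 0.15 for Acly (unadjusted p = 0.00905, adjusted p = 0.623) and 0.41 ± 0.15 for Me1 on 1370870_at (unadjusted p = 0.0163, adjusted p = 0.647).

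Within the preparations that TFMPP shared with other drugs, the Thrsp change was lowest with TFMPP. In preparation 1 the change of 1371400_at was 0.12 with TFMPP and 0.55 to 0.65 with the other drugs, in preparation 2 it was 0.03 against 0.46 to 0.47, and in preparation 4 it was -0.02 against 0.14. TFMPP was lowest in 3 of 3 shared preparations on each of the 3 Thrsp probe sets, in 2 of 3 on both Fasn probe sets and in 1 of 3 for Acsl3. The 3 Thrsp probe sets read 1 gene on the same arrays, and preparation 4 held only 1 other drug. How often TFMPP was lowest among all probe sets was not counted. A fit of the 12 pair changes with preparation as a block, chosen after the data were seen, gave BZP minus TFMPP at 0.43 to 0.47 and TFMPP minus MeOPP at -0.43 to -0.34 for the 3 Thrsp probe sets. The smallest limma adjusted p among these Thrsp differences was 0.408. Differences of like size were not limited to Thrsp in this fit. For Fasn BZP minus TFMPP was 0.58 on 1367708_a_at and 0.40 on 1367707_at (limma adjusted p-values of 0.575 and 0.914). For Me1 on 1370870_at BZP minus MDBP was 0.47 and TFMPP minus MDBP 0.46 (limma adjusted p-values of 0.679 and 0.566). Limma called 0 of 11 probe sets in this fit too.

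Control levels of Thrsp, Fasn and Acsl3 differed between preparations, Thrsp most among the 3: on 1371400_at the 4 controls of preparation 1 lay at 6.91 to 7.34, that of preparation 5 at 7.51, and the other 7 at 8.32 to 8.63. The change of Thrsp was 0.49 on average in preparation 1, 0.53 in preparation 5, 0.32 in preparation 2, 0.19 in preparation 3 and 0.06 in preparation 4. Fasn controls were lowest in preparation 2, at 6.26 to 6.81 on 1367708_a_at, and its changes were largest there, at 1.36 to 2.41. In the other preparations the Fasn changes ran from 0.73 to 1.26, so preparation 2 held the 3 largest on this probe set. On 1367707_at the changes in preparation 2 were 1.09 to 2.04, and pair 3 of TFMPP in preparation 4, at 1.24, lay above the lowest of them. The control value is itself a term of the change. Without preparation 2 the mean Fasn change was 0.93 on both probe sets and passed. The changes of Acsl3 were smallest, at 0.33 and 0.47, in preparation 4, where its controls were highest, at 6.75 and 6.94, and ran from 0.74 to 1.35 in all other pairs. Acaca on 1370893_at averaged from -0.52 in preparation 3 to -0.23 in preparation 4.

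**Figure D3:**
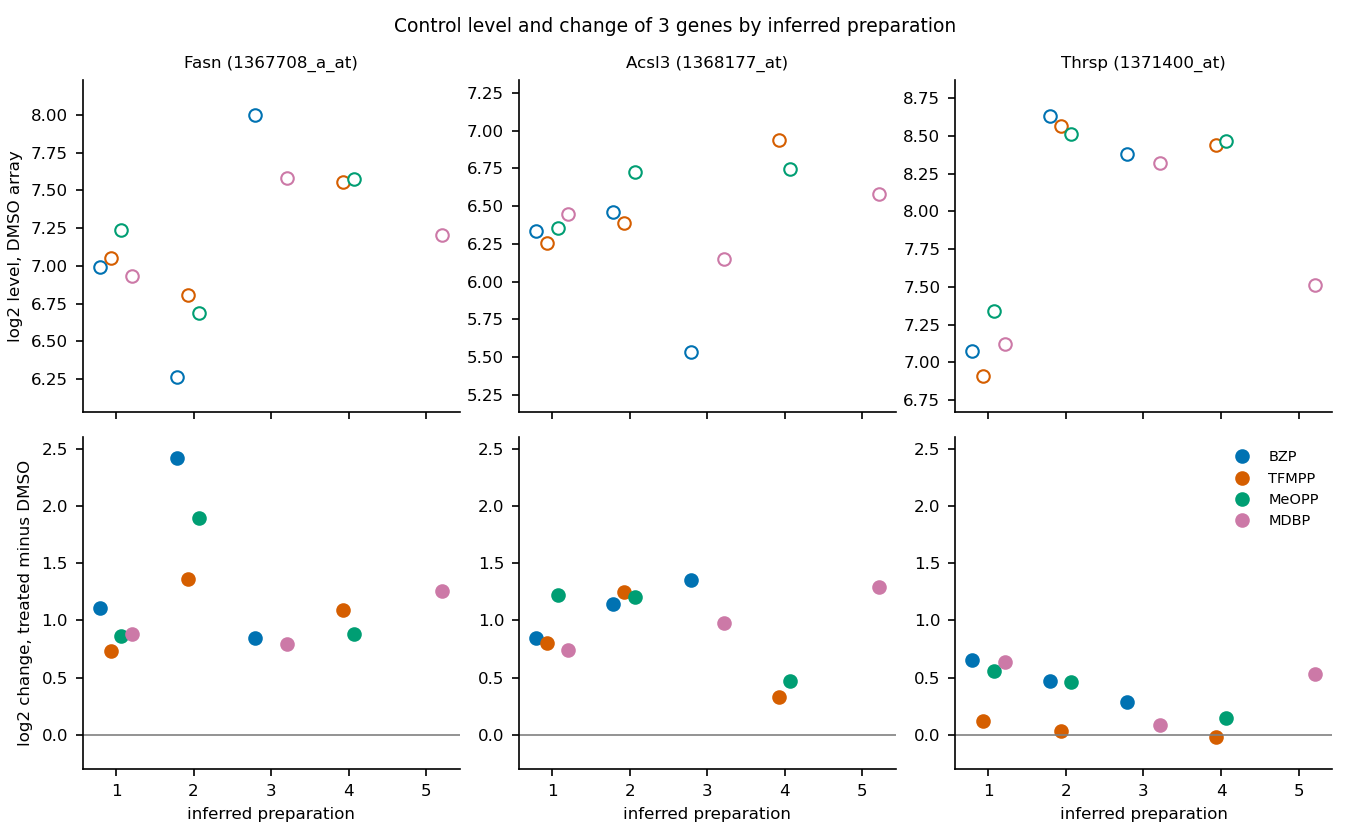
Log2 level in the DMSO array (top) and log2 change, treated minus DMSO (bottom), of Fasn, Acsl3 and Thrsp by inferred preparation, 1 point per pair, drugs in colour. Preparation 2 holds the 3 largest Fasn changes on 1367708_a_at (1.36 to 2.41), preparation 4 the 2 smallest Acsl3 changes (0.33 and 0.47), and the TFMPP points of Thrsp lie lowest in each of preparations 1, 2 and 4.

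Around the members, 61 of 64 further genes of the pathway had a probe set of their own, and in the mean of the drugs 19 rose and 16 fell, against 18% of all genes higher and 11.9% lower. Each gene was read from its probe set with the highest mean, and the median over all genes was 0.012. All 5 genes of elongation and desaturation rose (median 0.49), led by Fads1, the delta-5 desaturase, at 2.22 ± 0.12, and Scd, the stearoyl-CoA desaturase, at 0.67 ± 0.09 (SE, n = 12 pairs). Of 19 regulators 5 rose and 4 fell (median 0.05). Insig1, an ER anchor of SREBP, rose by 1.00 ± 0.07 and Srebf1 by 0.80 ± 0.06, each in 12 of 12 pairs, while Thrb, the thyroid hormone receptor beta, fell by 0.51 ± 0.05 and Nr1h3, the LXR alpha receptor, by 0.29 ± 0.06. Mlxipl, which encodes ChREBP, stood at 0.05 ± 0.06 (limma adjusted p = 0.651, 7 of 12 pairs higher). By drug, Srebf1 rose by 1.02 (BZP), 0.63 (TFMPP), 0.85 (MeOPP) and 0.72 (MDBP).

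The supply of precursors moved both ways. Of 8 measured genes for acetyl-CoA and citrate 1 rose and 4 fell (median -0.18): Slc25a1, the mitochondrial citrate carrier, rose by 0.36 ± 0.07 (SE, n = 12 pairs), while Pc, the pyruvate carboxylase, changed by -1.03 ± 0.09 and Mdh1, the cytosolic malate dehydrogenase, by -0.64 ± 0.05. Of 7 genes of NADPH supply 3 rose and 3 fell (median -0.16). Pgd and Tkt, of the pentose phosphate pathway, rose by 0.55 ± 0.08 and 0.52 ± 0.06, and Nnt, the mitochondrial transhydrogenase, and Idh1, the cytosolic isocitrate dehydrogenase, fell by 0.46 ± 0.04 and 0.37 ± 0.04. Among 10 partners of the carboxylase 3 rose and 2 fell (median 0.0021). Mid1ip1, a paralog of Thrsp that promotes assembly of acetyl-CoA carboxylase, rose by 0.52 ± 0.08 in 12 of 12 pairs, and stood at 0.49 ± 0.15 with TFMPP (adjusted p = 0.141). Prkab2, a subunit of the kinase AMPK that inhibits the carboxylase, rose by 0.33 ± 0.07, and the catalytic subunits Prkaa2 and Prkaa1 changed by -0.27 ± 0.05 and -0.17 ± 0.06, the last keeping its call in 7 of 23 alternatives. Acacb, the carboxylase isoform at the mitochondrion, stood at -0.05 ± 0.05 (limma adjusted p = 0.564). Prkab2 and Acacb were dim, with mean levels of 4.13 and 3.24, below the array medians.

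Among 7 other enzymes that activate fatty acids 1 rose and 2 fell. Acsl5 rose by 0.26 ± 0.05, and Slc27a5 and Slc27a2, the liver's bile acid and very long-chain acyl-CoA synthetases, fell by 1.27 ± 0.14 and 0.86 ± 0.07 (SE, n = 12 pairs; median of the list 0.10). Of 5 genes of mitochondrial fatty acid synthesis Mcat, the malonyl transferase, rose by 0.19 ± 0.05 and Ndufab1, the acyl carrier protein, fell by 0.19 ± 0.05 (median -0.00086). Of the genes named from these lists that had passed, 9 did not pass without the pair terms, with limma adjusted p-values of 0.0521 for Mid1ip1, 0.0663 for Slc27a5, 0.171 for Ndufab1, 0.194 for Prkaa2, 0.223 for Slc25a1, 0.355 for Mcat, 0.368 for Prkaa1, 0.406 for Nr1h3 and 0.567 for Scd. Over all alternatives these ranged from 5.62e-07 (Slc27a5) to 0.567 (Scd).

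**Figure D4:**
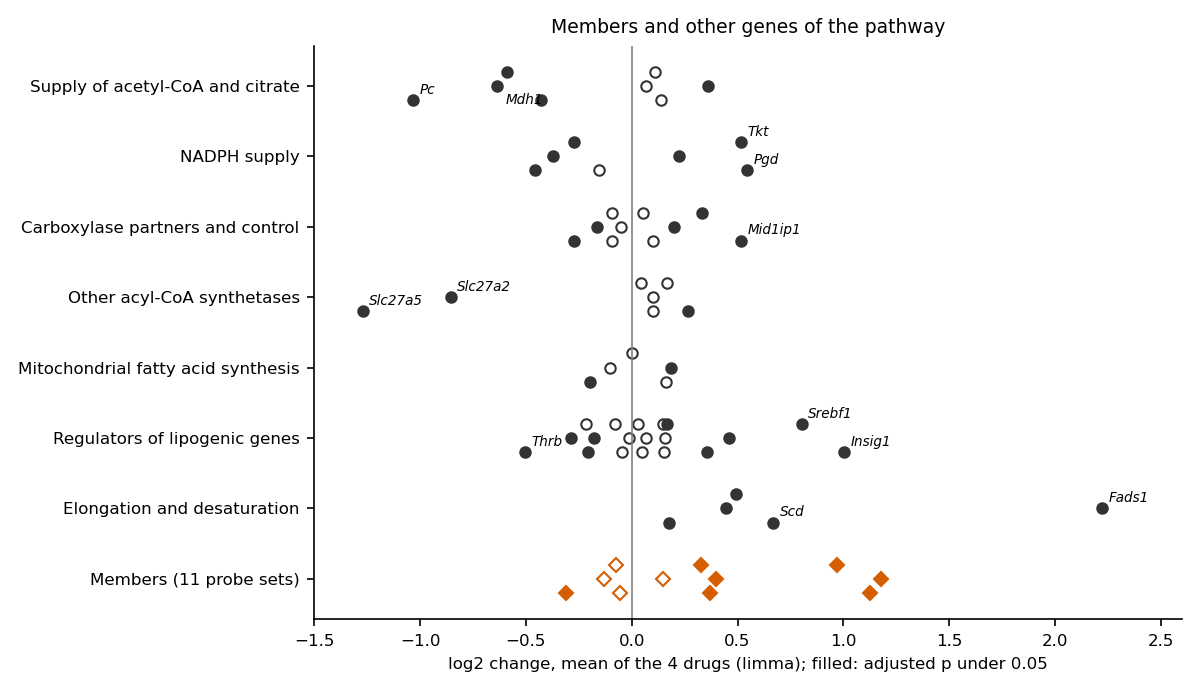
Log2 change in the mean of the 4 drugs (limma) of 61 further genes of the pathway by list (circles) and of the 11 member probe sets (diamonds), filled where the adjusted p was under 0.05. Fasn (1.12 and 1.18) and Acsl3 (0.97) lie near Insig1 (1.00) and Srebf1 (0.80), and Fads1 (2.22) lies farthest out.

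By the root mean square difference of the 12 pair changes, the gene most like Fasn (1367708_a_at) was Cyp51, the lanosterol demethylase of cholesterol synthesis, at 0.33, followed by Cables1 at 0.36, where Fasn itself lay 1.27 from no change. Nearest to Acsl3 were Insig1 at 0.21 and Dpysl2 at 0.22, against 1.02 from no change. For Thrsp (1371400_at) they were Commd1 and Zfp511, both at 0.15, against 0.41. For Acly they were Slc30a7 at 0.062 and Ppp1r12a at 0.091, for Me1 (1370870_at) Clock at 0.084 and Zfp281 at 0.11, and for Acaca (1370893_at) Bcl6 at 0.12 and Masp1 at 0.13. These are the nearest of all named genes over 12 pairs and a description only.

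Markers of other cells were measured beside these results. Of 7 Kupffer cell and leukocyte markers 3 fell (Clec4f, Csf1r and Adgre1) and 1 rose (Cd68) in the mean of the drugs, and their summed linear signal was 118.0 to 316 in the DMSO arrays and 111.3 to 291 in the treated arrays. Of 8 stellate cell and fibroblast markers 1 rose (Dcn) and 1 fell (Col3a1), with sums of 322 to 829 in DMSO and 352 to 953 in treated arrays. Of 5 endothelial and 4 cholangiocyte markers 0 passed in limma, with 1 endothelial (Stab2) and 0 cholangiocyte markers at an unadjusted p under 0.05. Of 6 adipocyte markers 1 fell (Cidec), with summed signal of 651 to 2494 in DMSO and 557 to 2525 in treated arrays. Their mean levels were 9.53 for Fabp4, 8.20 for Cidec, 4.57 for Pparg, 3.96 for Adipoq, 3.36 for Lep and 2.87 for Plin1. Of 9 hepatocyte markers 1 rose and 4 fell, as named above. The 3' minus 5' difference of the actin, GAPDH and hexokinase control probe sets was higher in the treated array in 7, 8 and 5 of 12 pairs. For actin its change in pairs 1, 2 and 3 was 0.62, 0.03 and 0.25 with TFMPP and 0.03, -0.03 and 0.33 with BZP. With MeOPP it was -0.24, -0.22 and 0.05, and with MDBP -0.19, -0.20 and 0.01. For GAPDH the changes ran from -0.15 to 0.14 and for hexokinase from -0.13 to 0.12. The part of these in the members' changes was not tested.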

How the data were processed

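RNA (100 ng per sample) was hybridised to Affymetrix rat arrays. The deposited values are log2 expression per probe set, made by the authors with RMA per the submitters' processing notes, with no version given in these sources. RMA scales arrays to a like distribution, so changes are relative to all probe sets. After 57 control probe sets were left out, 31042 were tested on the 24 arrays in 1 limma fit (limma 3.58.1, R 4.3.3) with a term for each of the 12 pairs, 8 residual degrees of freedom, and Benjamini-Hochberg adjustment at 0.05. The 4 drugs, their mean, the 6 differences between drugs and an F test were read from it. The control titles name the treated sample of each pair, and once group means were removed, the arrays of a pair correlated with r of 0.612 to 0.802 in 12 of 12 pairs. Tables and plots were made with pandas 2.3.3 and matplotlib 3.10.9, and the fit was tested on simulated data.

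Probe sets were named by the platform annotation: 20826 had 1 gene symbol, 436 several and 9780 none. Every member probe set is reported. From each list of further pathway genes the 2 largest rises and the 2 largest falls past the threshold are named, with Srebf1, Mlxipl, Acacb and Mid1ip1 always, and the 2 genes nearest to each member. The members and lists were chosen with earlier results of these data known. Alternatives were no pair terms, 12 DMSO arrays as 1 control group, repeated quantile normalization, a minimum mean log2 of 5, an intensity trend with a robust prior, only the arrays of the drug, 1 value per preparation, and leaving out each pair. Leaving out each preparation, and preparation as a block, were added after the data were seen. The number of arrays limits the precision.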

Additional observations from a re-analysis of the deposited data

How the results depend on the processing

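The pairs carry the calls of the single drugs. With no replicate block, that is without the pair terms, 0 of the 11 probe sets passed for any single drug, against 7 (BZP), 3 (TFMPP), 5 (MeOPP) and 6 (MDBP), and 3 passed in the mean of the drugs, against 7. With the 12 DMSO arrays as 1 control group, also without pairing, the counts were 2, 0, 3 and 2 by drug and 3 in the mean. The arrays of BZP alone gave 3. Leaving out 1 pair of any drug gave 4 to 7 calls for BZP, 0 to 3 for TFMPP, 2 to 6 for MeOPP, 1 to 7 for MDBP and 7 to 8 in the mean, and leaving out 1 preparation also gave 7 to 8. The F test over the 4 drugs called 0 of 11 in each fit where it was read, which left out the fits without 1 preparation. The 6 single differences between drugs were read only in the main fit and with preparation as a block, and 0 of 11 were called. Of 539 alternative values of the 28 called results, 442 kept their direction and side of the threshold, 97 kept only the direction and 0 reversed.

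Values near 0 that had not passed changed sign in some fits. When 1 pair of the drug was left out, Acaca 1387538_at ranged from -0.028 to 0.17 for BZP, from -0.13 to 0.012 for TFMPP and from -0.17 to 0.035 for MDBP. In the same way Acly ranged from -0.11 to 0.053 for MeOPP, Me1 1370870_at from -0.011 to 0.18 for BZP and Thrsp 1370150_a_at from -0.071 to 0.083 for TFMPP. With the DMSO arrays joined, Me1 1370067_at became -0.030 for BZP and 0.027 for TFMPP, and Me1 1370870_at -0.096 and 0.0081. Mlxipl in the mean ranged from -0.023 without preparation 4 to 0.086 without preparation 2, and was -0.0022 without pair 3 of MeOPP. The cause was not tested. Among the further pathway genes, 9 to 22 rose and 8 to 16 fell over the alternatives, with 9 and 8 without the pair terms. Acaca 1387538_at was dim on all arrays.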
